A study of Mus musculus with 2 samples.

Results

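The 10 genes described here belong to the retinoic acid pathway and were followed across the mesoderm of the mouse pharynx and heart at embryonic day 9.5. They were taken from the 27998 genes of the files by their symbols: Rdh10 and Aldh1a2 for synthesis, Dhrs3 for the step back to retinol, Cyp26a1, Cyp26b1 and Cyp26c1 for breakdown, Crabp1 and Crabp2 for binding inside the cell, and Rarb and Rarg among the receptors. Each of the 10 symbols matched 1 row.

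Retinoic acid is a small, diffusible signal made from vitamin A. Retinol is oxidised to retinal by enzymes such as RDH10, retinal is oxidised to retinoic acid by ALDH1A2, and CYP26 enzymes remove the product, so cells that make it and cells that destroy it set its range. In the nucleus it binds receptors that sit on paired DNA repeats, and in the early embryo it is known for setting the posterior limit of the heart field and for patterning the caudal pharyngeal arches.

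The study asked what the transcription factor Tbx1 does in the cardiopharyngeal mesoderm, the tissue that gives heart and branchiomeric muscle. Described here are 2 of its single-cell libraries, 1 for each genotype, each from 2 pooled Swiss Webster embryos, made from the dissected pharyngeal apparatus and heart. By the study's account both genotypes had a further library, which is not used here. The embryos of the library labelled Ctrl carried Mesp1Cre and Rosa26-GFPflox/+, and those of the library labelled cKO carried both of these and Tbx1flox/flox. In both, living GFP-positive cells were sorted, so the cells are those in which Mesp1Cre, active in early mesoderm, had at some time switched on the reporter. By the study's account the cKO embryos had more somites than the Ctrl embryos, so stage and genotype cannot be told apart.

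The files held 7418 cells with 132017331 unique molecular identifiers (UMIs, 1 for each captured transcript) in the library labelled Ctrl and 10281 cells with 162874391 UMIs in the library labelled cKO, and 15 cell barcodes occurred in both. After filters, 6591 and 8969 cells remained, with a median of 16854 and 14192 UMIs per cell. They fell into 15 populations with at least 50 cells in each library, of which 10 could be named from markers and 5 stayed as numbered clusters, and since these names were rebuilt here, differences from the study's own populations may come from that. With 1 library for each genotype no test between genotypes was possible. Levels are given as UMIs per 1000000 UMIs of the population (CPM), with exact Poisson intervals that cover counting error only. In this text the ratio of the libraries is log2 of cKO over Ctrl, and the median gene of a population lay between -0.05 and -0.13 on that scale. The genes were kept out of the features that formed the clusters.

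The count of Tbx1, the deleted gene, does not check the labels. In MLP-like cells (resembling the study's multilineage progenitors) it was 55 CPM (52 to 58.2) in the library labelled Ctrl and 111 CPM (108 to 115) in the library labelled cKO, so it was higher under the label of its deletion. In BrM-like cells (branchiomeric muscle progenitors) it was 121 and 94.9 CPM. A count at the 3′ end of a transcript need not read the part that Cre removes, so the libraries are called by their labels throughout. Both libraries held cells with UMIs of Xist and none of Y-linked genes, 3371 and 5083 of them, and cells with the reverse, 2647 and 2778. As each library pooled 2 embryos, this separates an embryo of each sex in each library, and values within the Xist cells and within the Y cells are given beside the results they touch. RNA of blood cells was more abundant in the library labelled cKO: the summed level of 8 erythroid markers in MLP-like cells was 0.771 CPM under Ctrl, with Hbb-bh1 among those at 0, and 173 CPM under cKO, with Gata1 at 0, and its part in the results was not tested.

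The promoters of 8 of the 10 genes were listed in the RefSeq sequences used, and those of Rdh10 and Crabp2 were not. Retinoic acid receptors bind repeats of a hexamer, and the search covered ordered pairs of the hexamer AGGTCA, its variant AGTTCA, its variant GGGTCA and its variant GGTTCA with a spacer of 5 bases (DR5), 2 bases (DR2) or 1 base (DR1), on both strands. A DR5 lay in the windows of 2 of the 8 genes, Rarb and Cyp26a1, and in those of 31 of 27025 genes over the genome (0.115%). No DR2 or DR1 lay in the 8. The 2 windows are shown because they hold these repeats, with the 250 bases before each start read along the gene's strand (RefSeq, GRCm38.p6) and the paired hexamers in capitals. The starts are those of single RefSeq transcripts and not the outer ends of the genes: the Rarb window lies inside the gene (16430839 to 17082331), and the span of Cyp26a1 begins at 37697738, ahead of its repeat. The Rarb window is chr14:16575477-16575726 on the minus strand, and its repeat, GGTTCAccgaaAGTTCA, begins 53 bases before the start. The Cyp26a1 window is chr19:37697558-37697807 on the plus strand, and its repeat reads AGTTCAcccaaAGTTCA on the opposite strand, with its far end 32 bases before the start.
Rarb: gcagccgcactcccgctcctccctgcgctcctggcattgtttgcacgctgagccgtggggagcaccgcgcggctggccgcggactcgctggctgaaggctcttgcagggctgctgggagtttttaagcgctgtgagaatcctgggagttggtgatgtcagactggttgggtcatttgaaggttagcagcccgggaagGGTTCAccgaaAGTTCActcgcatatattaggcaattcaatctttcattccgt
Cyp26a1: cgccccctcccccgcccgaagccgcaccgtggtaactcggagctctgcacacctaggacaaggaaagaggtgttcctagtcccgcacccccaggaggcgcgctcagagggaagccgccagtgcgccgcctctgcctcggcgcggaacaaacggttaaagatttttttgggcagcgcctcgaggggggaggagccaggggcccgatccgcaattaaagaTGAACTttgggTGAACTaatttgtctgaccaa
A match is a description of the letters, not a site that a receptor was seen to bind. The levels of Rarb and Cyp26a1 differed across populations, as given below: where Rarb was highest, in cluster 22, Cyp26a1 stood at 3.53 CPM in the library labelled Ctrl, and where Cyp26a1 was high among named populations, in BrM-like cells, Rarb stood at 1.61 CPM. In clusters 8 and 1 both were among their own highest levels, with Cyp26a1 at 22.4 and 17.4 CPM and Rarb at 38.7 and 37.5 CPM.

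**Figure D1:**
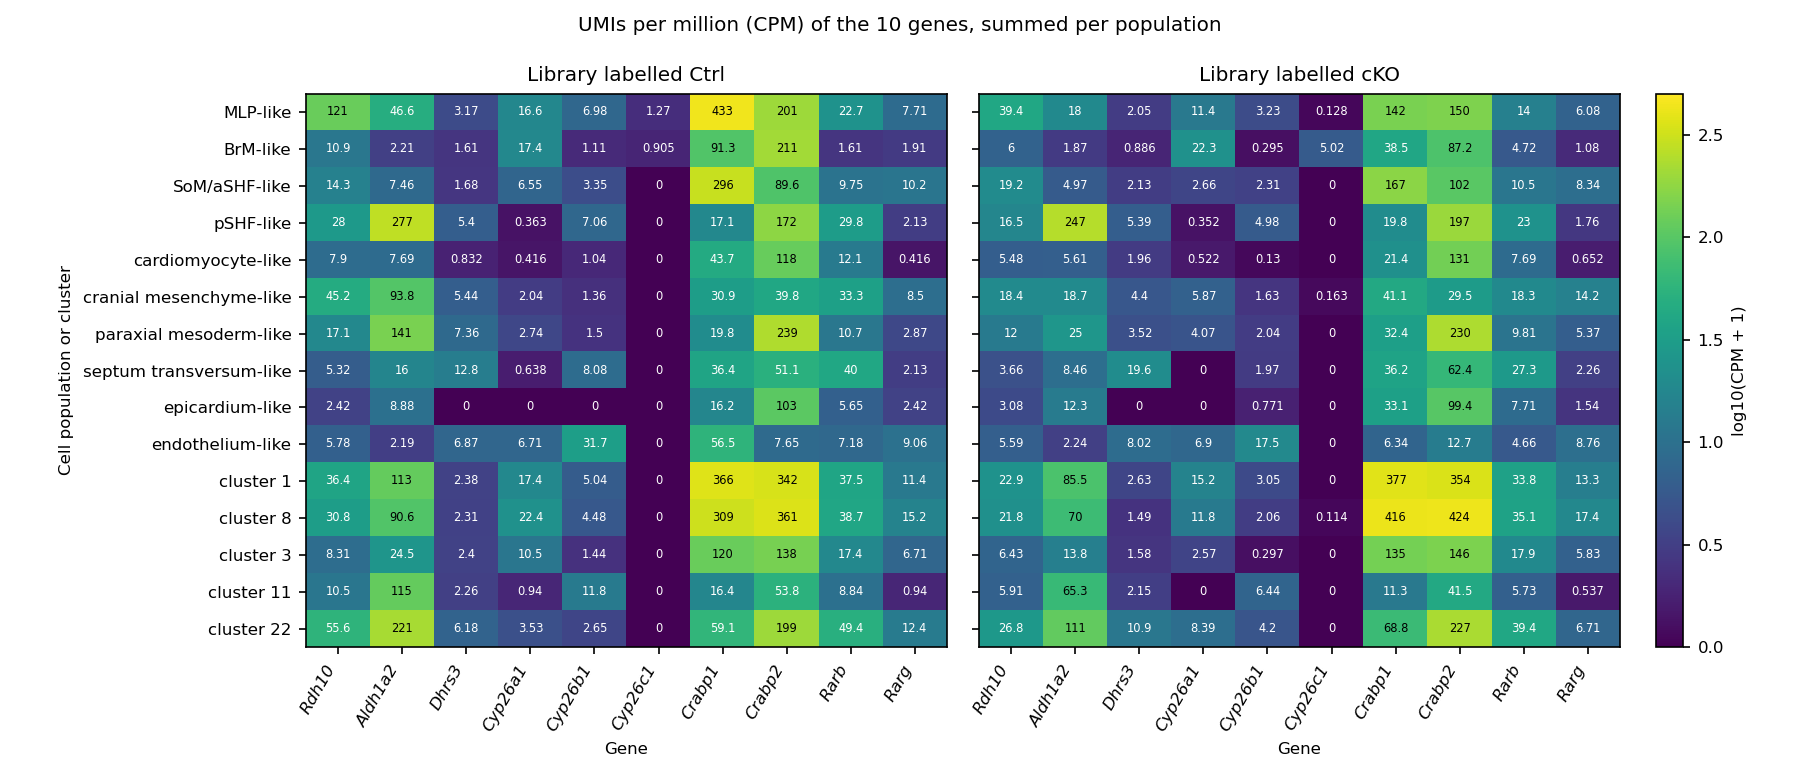
Levels of the 10 genes (columns) in 15 cell populations or clusters (rows) of the library labelled Ctrl and of the library labelled cKO, as log10 of CPM plus 1, with yellow for the highest and dark violet for the lowest and the CPM printed in each square. Synthesis (Aldh1a2) peaks in pSHF-like cells at 277 and 247 CPM, while Crabp1 peaks in MLP-like cells at 433 CPM under Ctrl.

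Rdh10, the retinol dehydrogenase of the first oxidation, was a gene of the MLP-like cells, and its level there was far lower in the library labelled cKO. Among MLP-like cells of the library labelled Ctrl, Rdh10 reached 121 CPM (117 to 126). Next came cluster 22, a small cluster led by Cpa1 and Maf, at 55.6 CPM (42.7 to 71.2) and cranial mesenchyme-like cells at 45.2 CPM (37.8 to 53.6), which overlapped. Cluster 1 (36.4 CPM), cluster 8 (30.8 CPM) and pSHF-like cells (posterior second heart field, 28 CPM) followed, and epicardium-like cells had 3 UMIs in all. The cranial mesenchyme-like cells were named from 5 of 7 markers (Foxc1, Foxc2, Zic2, Zic5 and Foxd1), without Otx2 and Alx1. The paraxial mesoderm list came second with 2 of 8 markers, and Pax9 of that list was among the leading genes.

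In the library labelled cKO, Rdh10 in MLP-like cells was 39.4 CPM (37.3 to 41.7), which is -1.62 (-1.72 to -1.52) on the log2 scale. The intervals lie far apart. Rdh10 was lower in each of the 4 clusters that make up the MLP-like cells, at -2.42 in cluster 2, -1.61 in cluster 5, -2.06 in cluster 6 and -0.69 in cluster 14. Clusters 2 and 6 were also led by Crym, and without them the ratio was -1.20. It was also lower in both kinds of embryo, with 133 and 39.5 CPM in Xist cells and 112 and 42.4 CPM in Y cells. After each cell was thinned to 5000 UMIs, 35.3% (32.7 to 38) of 1296 MLP-like cells under Ctrl and 14.8% (13.3 to 16.5) of 2042 under cKO had an Rdh10 UMI, against a background of 1.14% and 2.14% in cardiomyocyte-like cells. Median depths were 15762 and 14179 UMIs in the MLP-like cells and 16676 and 15083 in the cardiomyocyte-like cells, and without thinning the MLP-like shares were 59.3% and 32.4%.

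Outside the MLP-like cells, Rdh10 was lower by 2-fold or more in cranial mesenchyme-like cells, where it was 45.2 CPM under Ctrl and 18.4 CPM under cKO, which is -1.29 (-1.67 to -0.92) on the log2 scale. There it was lower in Xist cells (50.3 and 14.8 CPM) and in Y cells (42.4 and 21.6 CPM), by less than 2-fold in the latter. In cluster 22 the ratio was -1.05 (-1.71 to -0.41), with 56.3 and 16 CPM in Xist cells but 58.8 and 47.4 CPM in Y cells, each from under 70 cells a library. SoM/aSHF-like cells (somatic mesoderm and anterior second heart field) went the other way, from 14.3 to 19.2 CPM, a ratio of 0.42 whose interval (0.01 to 0.83) starts next to 0.

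Aldh1a2, the enzyme that makes retinoic acid and the usual marker of where it is made, was highest in pSHF-like cells and close to level between the libraries there. It stood at 277 CPM (269 to 284) under Ctrl and 247 CPM (240 to 255) under cKO, which is -0.16 (-0.22 to -0.10) on the log2 scale, near the -0.10 of the median gene. Xist cells gave 283 and 266 CPM and Y cells 273 and 231 CPM. Within the pSHF-like cells the clusters 4 and 16 held 313 and 320 CPM under Ctrl and cluster 12, which was led by Osr1 and Wnt2 among others, held 183 CPM. Of thinned pSHF-like cells, 69.3% (66.4 to 72) and 65% (62.2 to 67.8) had an Aldh1a2 UMI at median depths of 17257 and 14069 UMIs, and unthinned 93.3% and 87.6%. The background in endothelium-like cells was 0.836% and 0.273% at median depths of 16652 and 13982 UMIs.

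Below the pSHF-like cells the order under Ctrl was cluster 22 (221 CPM, 194 to 250), paraxial mesoderm-like cells (141 CPM, 133 to 149), cluster 11, led by Barx1 and Foxf1 (115 CPM, 106 to 124), cluster 1 (113 CPM, 107 to 120) and cranial mesenchyme-like cells (93.8 CPM, 83 to 106). Of these neighbours, clusters 11 and 1 did not differ beyond counting error. BrM-like and endothelium-like cells were at 2.21 and 2.19 CPM. Under cKO the paraxial and cranial populations left this upper range. Paraxial mesoderm-like cells were at 25 CPM (21 to 29.6), which is -2.49 (-2.76 to -2.24) on the log2 scale, and cranial mesenchyme-like cells at 18.7 CPM (15.5 to 22.5), a ratio of -2.32 with a lower limit of -2.65, which was -1.36 where the libraries were clustered without integration and -1.72 in the first clustering pass, which kept the genes that differ between the libraries.

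Both of these differences lay in the Xist cells of the library labelled Ctrl. In cranial mesenchyme-like cells Aldh1a2 was 170 CPM under Ctrl and 6.67 CPM under cKO in Xist cells, but 28 and 39.7 CPM in Y cells, where the ratio was 0.51. In paraxial mesoderm-like cells it was 171 CPM in 316 Xist cells under Ctrl and 23.3 CPM in 36 under cKO, against 13.8 CPM in 74 Y cells under Ctrl and 26.7 CPM in 234 under cKO, a ratio of 0.95. The paraxial cells were also shared unequally between embryos. In cluster 17, led by Pax1, a marker of the ventral somite, Xist cells made up 84.8% of 269 cells under Ctrl and 11% of 209 under cKO, and the Aldh1a2 level of the cluster was 206 and 32.3 CPM. Cluster 21, led by Pax3, held 32.4 and 12.5 CPM. Pax1 in paraxial mesoderm-like cells had the same directions, with 127 and 8.96 CPM in Xist cells and 44.2 and 91.5 CPM in Y cells. The sizes differed: between Xist cells under Ctrl and Y cells under cKO, Pax1 was 127 and 91.5 CPM but Aldh1a2 171 and 26.7 CPM. With these values the difference between embryos and the difference between genotypes cannot be told apart for Aldh1a2 in either population.

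In MLP-like cells Aldh1a2 was 46.6 CPM (43.8 to 49.6) under Ctrl and 18 CPM (16.5 to 19.5) under cKO, which is -1.37 (-1.53 to -1.23) on the log2 scale. The ratio was -2.09 without integration and -2.44 in the first clustering pass. Here both kinds of embryo were lower under cKO, Xist cells from 50.8 to 14.5 CPM and Y cells from 40.1 to 21.5 CPM, the latter a ratio of -0.90. The 4 clusters gave -2.19, -1.41, -2.36 and -0.88 in the order 2, 5, 6 and 14. The share of thinned cells with a UMI was 14.5% (12.6 to 16.5) and 4.9% (4 to 5.92), and unthinned 27.5% and 9.76%. Smaller differences were measured in cluster 22 (221 to 111 CPM), cluster 11 (115 to 65.3 CPM), cluster 1 (113 to 85.5 CPM) and cluster 8 (90.6 to 70 CPM). In cluster 22 the Y cells carried most of it (203 to 37.4 CPM) and in cluster 11 the Xist cells (110 to 54.4 CPM against 116 to 91.5 CPM in Y cells).

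Dhrs3, which turns retinal back into retinol, was a rare transcript in these cells. Among the 15 populations it was highest in septum transversum-like cells, at 12.8 CPM (9.74 to 16.4) under Ctrl and 19.6 CPM (16.5 to 23.1) under cKO, which is 0.62 (0.17 to 1.08) on the log2 scale. Xist cells gave 11.6 and 14.9 CPM and Y cells 12.7 and 35.4 CPM. Paraxial mesoderm-like cells followed at 7.36 CPM under Ctrl, where the intervals of neighbouring populations overlap, and at 3.52 CPM under cKO. Cluster 28, led by Pf4 and too small to be compared with its 13 and 9 cells, held more, at 67.6 CPM (42.4 to 102) and 122 CPM (71.2 to 196).

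By their point values the genes of the CYP26 enzymes were highest in different populations under Ctrl, and under cKO Cyp26a1 and Cyp26c1 were both highest in BrM-like cells. Under Ctrl, however, the intervals of BrM-like cells overlap those of the highest population for both Cyp26a1 and Cyp26c1. Cyp26a1 was measured at 22.4 CPM (19.1 to 26.1) in cluster 8, 17.4 CPM in cluster 1 and in BrM-like cells, 16.6 CPM (14.9 to 18.3) in MLP-like cells and 10.5 CPM (8.16 to 13.4) in cluster 3 under Ctrl. From cluster 8 to the MLP-like cells, neighbours in this order do not differ beyond counting error. It was almost missing from the cells richest in Aldh1a2, the pSHF-like cells, with 7 and 6 UMIs in all (0.363 and 0.352 CPM).

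Under cKO, Cyp26a1 was lower in cluster 3, led by Postn, Sfrp5 and Shox2, at 2.57 CPM, which is -2.04 (-2.75 to -1.36) on the log2 scale. Here again the embryos differed: Y cells went from 13.1 to 2.05 CPM, while Xist cells were at 3.54 and 2.8 CPM, and Xist cells were 30.3% of the cluster under Ctrl and 75.5% under cKO. In cluster 8 it was 22.4 and 11.8 CPM, lower in Xist cells (21.9 and 13 CPM) and in Y cells (24.5 and 8.63 CPM). BrM-like cells were slightly higher under cKO, at 22.3 CPM (19.5 to 25.4), a ratio of 0.36 (0.07 to 0.66). Of thinned BrM-like cells 6.77% and 9.4% had a Cyp26a1 UMI, at median depths of 18490 and 14306 UMIs, unthinned 18.1% and 22.5%, beside 0.38% and 0.428% in cardiomyocyte-like cells.

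In MLP-like cells the pooled Cyp26a1 level, 16.6 CPM under Ctrl and 11.4 CPM under cKO, hid opposite courses. Xist cells went from 9.75 to 16.9 CPM, which is 0.80 (0.47 to 1.14) on the log2 scale, and Y cells from 24 to 3.31 CPM, a ratio of -2.86 (-3.41 to -2.34). Across the clusters it was level in clusters 2 and 6, which are led by Crym (17.3 to 16.8 CPM and 24.5 to 21.4 CPM), and lower in clusters 5 and 14 (11.9 to 3.61 CPM and 11.1 to 3.75 CPM). No direction is given for Cyp26a1 in MLP-like cells for that reason.

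Cyp26b1 was highest in endothelium-like cells, which held 203 of its 748 UMIs under Ctrl. It was 31.7 CPM (27.5 to 36.4) in endothelium-like cells under Ctrl and 17.5 CPM (14.2 to 21.4) under cKO, which is -0.86 (-1.22 to -0.50) on the log2 scale, with 27.1 and 18.8 CPM in Xist cells and 39.5 and 17.9 CPM in Y cells. Among the endothelial clusters it was higher in cluster 20, led by Klf2 and Hapln1 among others, at 54 and 29.9 CPM, than in cluster 18, led by Cldn5 and Hhex among others, at 16.4 and 10.4 CPM. Cluster 11 came next at 11.8 and 6.44 CPM. MLP-like cells had 6.98 and 3.23 CPM, a ratio of -1.11 (-1.49 to -0.74), with 6.91 and 3.77 CPM in Xist cells, 7.13 and 2.46 CPM in Y cells, and the highest level of their clusters in cluster 14 (13.1 and 4.18 CPM). In pSHF-like cells it was 7.06 and 4.98 CPM.

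Cyp26c1 was seen in BrM-like and MLP-like cells and hardly anywhere else. BrM-like cells held 9 UMIs under Ctrl and 51 under cKO, 0.905 CPM (0.414 to 1.72) and 5.02 CPM (3.74 to 6.6), which is 2.47 (1.44 to 3.68) on the log2 scale. The higher count was present in Xist cells (5 and 29 UMIs) and in Y cells (4 and 16 UMIs). MLP-like cells went the other way, from 28 UMIs to 4, a ratio of -3.31 (-5.28 to -1.80), with 21 of the 28 in Y cells, and -1.61 in the first clustering pass. Neither level reached 10 CPM. In thinned BrM-like cells, 0 of 517 under Ctrl had a Cyp26c1 UMI, which allows a share of thinned cells with a UMI of up to 0.58% (3 counts of the total), and 3.43% (2.19 to 5.11) of 670 under cKO did, and unthinned the shares were 1.73% and 7%. In pSHF-like cells no UMI was found in either library, and by the same limit of 3 counts levels up to 0.156 and 0.176 CPM remain possible.

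Crabp1 and Crabp2 encode proteins that carry retinoic acid inside the cell, CRABP2 to the nuclear receptors and CRABP1 by the usual account towards breakdown. Under Ctrl Crabp1 was most abundant in MLP-like cells, and under cKO it was lower there and highest in cluster 8 (416 CPM). Its level in MLP-like cells was 433 CPM (424 to 441) under Ctrl and 142 CPM (138 to 147) under cKO, which is -1.60 (-1.66 to -1.55) on the log2 scale. The interval covers counting alone: in the first clustering pass the levels were 635 and 63.2 CPM and the ratio -3.33. Under Ctrl the next in order were cluster 1 (366 CPM, 355 to 377), cluster 8 (309 CPM, 297 to 322) and SoM/aSHF-like cells (296 CPM, 283 to 309), the last 2 overlapping.

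The lower Crabp1 in MLP-like cells held in Xist cells (519 and 157 CPM) and in Y cells (356 and 133 CPM). It held in all 4 clusters, with 492 and 148 CPM in cluster 2, 476 and 84.6 CPM in cluster 5, 265 and 164 CPM in cluster 6, and 508 and 184 CPM in cluster 14. The share of thinned cells with a Crabp1 UMI was 57.5% (54.7 to 60.2) and 33.7% (31.6 to 35.8), and unthinned 76.5% and 55.6%. SoM/aSHF-like cells differed by less, with 296 and 167 CPM, and BrM-like cells went from 91.3 CPM (85.4 to 97.4) to 38.5 CPM (34.8 to 42.5), a ratio of -1.25. Clusters 1 and 8, which rank next to the MLP-like cells under Ctrl and are led by Hox genes, Lix1 and Gal, did not share the lower level: cluster 1 stood at 366 and 377 CPM and cluster 8 at 309 and 416 CPM. That higher level in cluster 8 was present in Xist cells (335 and 428 CPM) and in Y cells (270 and 400 CPM).

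In endothelium-like cells Crabp1 went from 56.5 CPM (50.8 to 62.7) to 6.34 CPM (4.39 to 8.86), which is -3.16 (-3.71 to -2.65) on the log2 scale. Nearly all of it lay in cluster 18, at 96 and 8.01 CPM, while cluster 20 was at 2.02 and 3.67 CPM. Both kinds of embryo were lower, Xist cells from 88.6 to 4.6 CPM and Y cells from 32.7 to 6.71 CPM. The thinned share was 11.4% (8.32 to 15.2) under Ctrl and 2.46% (1.13 to 4.62) under cKO, unthinned 17.3% and 7.41%, and the share of 1.89% in erythroid-like cells under cKO, at a median depth of 25427 UMIs, is within the interval of the latter. That background rests on 3 of 159 cells, so the level under cKO could not be told apart from background and the size of the ratio is uncertain. With presumed doublets kept and the clustering repeated the ratio was -1.53. Cardiomyocyte-like cells had 43.7 and 21.4 CPM, with most of it in cluster 23 (125 and 56.3 CPM), and a ratio of -1.03 that was -1.69 in the first clustering pass. No gene was counted as past 2-fold in Xist cells and in Y cells alike in that population. Epicardium-like cells had 20 and 43 UMIs, a pooled ratio of 1.04 (0.24 to 1.88), but only 7 and 8 of these were in Xist cells and 13 and 12 in Y cells, too few for a ratio. The rest of the UMIs under cKO lay in the 6 cells of neither kind, and in the first clustering pass the ratio was 0.20.

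Crabp2 was more widely spread. Under Ctrl it was highest in cluster 8 (361 CPM, 347 to 375) and cluster 1 (342 CPM, 331 to 353), whose intervals overlap, then in paraxial mesoderm-like (239 CPM), BrM-like (211 CPM), MLP-like (201 CPM, 195 to 207) and pSHF-like cells (172 CPM). Cluster 22, at 199 CPM (174 to 226), was level with the MLP-like cells. In BrM-like cells it was 211 CPM (202 to 220) under Ctrl and 87.2 CPM (81.6 to 93.1) under cKO, which is -1.27 (-1.39 to -1.16) on the log2 scale. Xist cells gave 196 and 91.9 CPM, Y cells 215 and 81.1 CPM, and both BrM-like clusters were lower (193 to 83.6 CPM in cluster 10, 247 to 93.7 CPM in cluster 15). The thinned share was 60% (55.6 to 64.2) under Ctrl and 31.3% (27.8 to 35) under cKO, unthinned 89.4% and 53.8%, against 3.34% and 5.46% in endothelium-like cells.

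No other population had a Crabp2 ratio as large. It was 201 and 150 CPM in MLP-like cells, 172 and 197 CPM in pSHF-like cells, and 342 and 354 CPM in cluster 1. In paraxial mesoderm-like cells the pooled levels of 239 and 230 CPM again combined opposite values, 202 and 280 CPM in Xist cells and 391 and 221 CPM in Y cells.

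**Figure D2:**
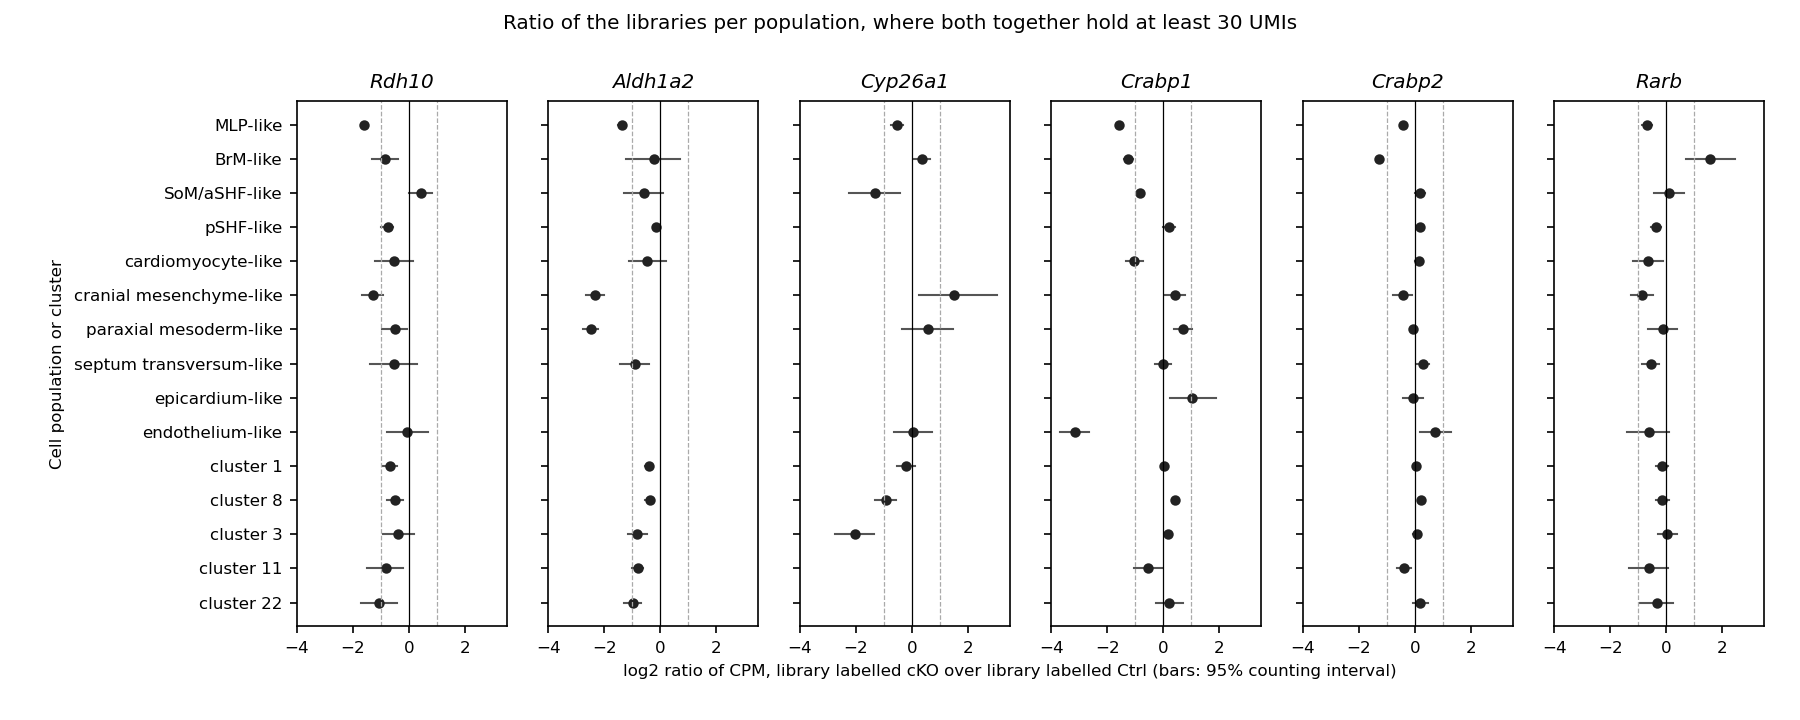
Log2 ratio of CPM (library labelled cKO over library labelled Ctrl, x axis) in each population or cluster (y axis) for 6 genes, where both libraries together hold at least 30 UMIs. Points are ratios, bars are 95% counting intervals and dashed lines mark a 2-fold ratio: Crabp1 lies at -1.60 in MLP-like cells and -3.16 in endothelium-like cells, and Crabp2 at -1.27 in BrM-like cells.

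Rarb, a receptor gene that is itself a classical target of retinoic acid, was measured at low levels in most populations. Under Ctrl it was 49.4 CPM (37.3 to 64.2) in cluster 22, 40 CPM (34.5 to 46.1) in septum transversum-like cells, 38.7 CPM in cluster 8, 37.5 CPM in cluster 1 and 33.3 CPM (27 to 40.6) in cranial mesenchyme-like cells, an order in which neighbours do not differ beyond counting error. Septum transversum-like cells were at 27.3 CPM under cKO (log2 ratio -0.55), lower in Xist cells (33.6 and 27.2 CPM) and in Y cells (45.3 and 29.3 CPM). A UMI was present in 16.5% and 13.8% of thinned septum transversum-like cells and in 6.46% and 3.64% of cardiomyocyte-like cells, and unthinned in 42.7% and 30.4% of the former.

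In MLP-like cells Rarb was 22.7 CPM (20.7 to 24.8) and 14 CPM (12.7 to 15.4), a difference of -0.69 on the log2 scale that lay in the Xist cells (27.2 and 11.3 CPM), while Y cells stood at 18 and 18.9 CPM. BrM-like cells had 16 UMIs under Ctrl and 48 under cKO, 1.61 and 4.72 CPM, a ratio of 1.55 (0.71 to 2.47), or 0.89 with presumed doublets kept, higher in Xist cells (2.25 and 4.87 CPM) and in Y cells (0.591 and 3.12 CPM). Rarg, the other receptor, reached at most 15.2 CPM under Ctrl, in cluster 8, with 17.4 CPM under cKO, and cardiomyocyte-like cells had 2 and 5 UMIs of it.

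Counted by population, a gene was measured where it had at least 10 CPM in 1 library and 30 UMIs in both together, and it was counted as higher or lower at 2-fold or more. These counts stand beside the same share over all genes measured in the population. In MLP-like cells 3 of 6 were lower (Rdh10, Aldh1a2, Crabp1) against 2.73% of all genes, and in BrM-like cells 2 of 4 (Crabp1, Crabp2) against 4.22%. In cranial mesenchyme-like cells 2 of 6 were lower (Rdh10, Aldh1a2) against 3.25%, and in paraxial mesoderm-like cells 1 of 5 (Aldh1a2) against 2.01%.

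In endothelium-like cells 1 of 3 was lower (Crabp1) against 1.79%, in cardiomyocyte-like cells 1 of 3 (Crabp1) against 1.41%, in cluster 3 1 of 5 (Cyp26a1) against 1.39%, and in cluster 22 1 of 5 (Rdh10) against 3.33%. In epicardium-like cells 1 of 2 was higher (Crabp1) against 1.51%. In pSHF-like cells, the main site of Aldh1a2, 0 of 5 were past 2-fold, where 0.527% of all genes were higher and 0.619% lower. SoM/aSHF-like cells had none either, where 0.602% were higher and 1.65% lower, nor did septum transversum-like cells (0.645% and 1.53%). The same held for cluster 1 (0.483% and 0.712%), cluster 8 (0.497% and 1.72%) and cluster 11 (0.606% and 1.78%).

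When a ratio of 2-fold or more was asked of the Xist cells and of the Y cells alike, Rdh10 and Crabp1 were left in MLP-like cells, 2 of 6 beside 1.74% of all genes. Crabp1 and Crabp2 were left in BrM-like cells, 2 of 4 beside 3.25%, and Crabp1 in endothelium-like cells, 1 of 2 beside 0.793%. In cranial mesenchyme-like cells 0 of 6 were left, beside 1.07%. None was left either in paraxial mesoderm-like cells (0 of 5), cardiomyocyte-like cells (0 of 2), cluster 3 (0 of 4), cluster 22 (0 of 5) or epicardium-like cells (0 of 1). So at 2-fold the lower Rdh10 and Crabp1 of MLP-like cells held in embryos of both sexes. The same was true of Crabp1 and Crabp2 in BrM-like cells and of Crabp1 in endothelium-like cells. The lower Aldh1a2 of the cranial and paraxial populations did not hold in both.

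**Figure D3:**
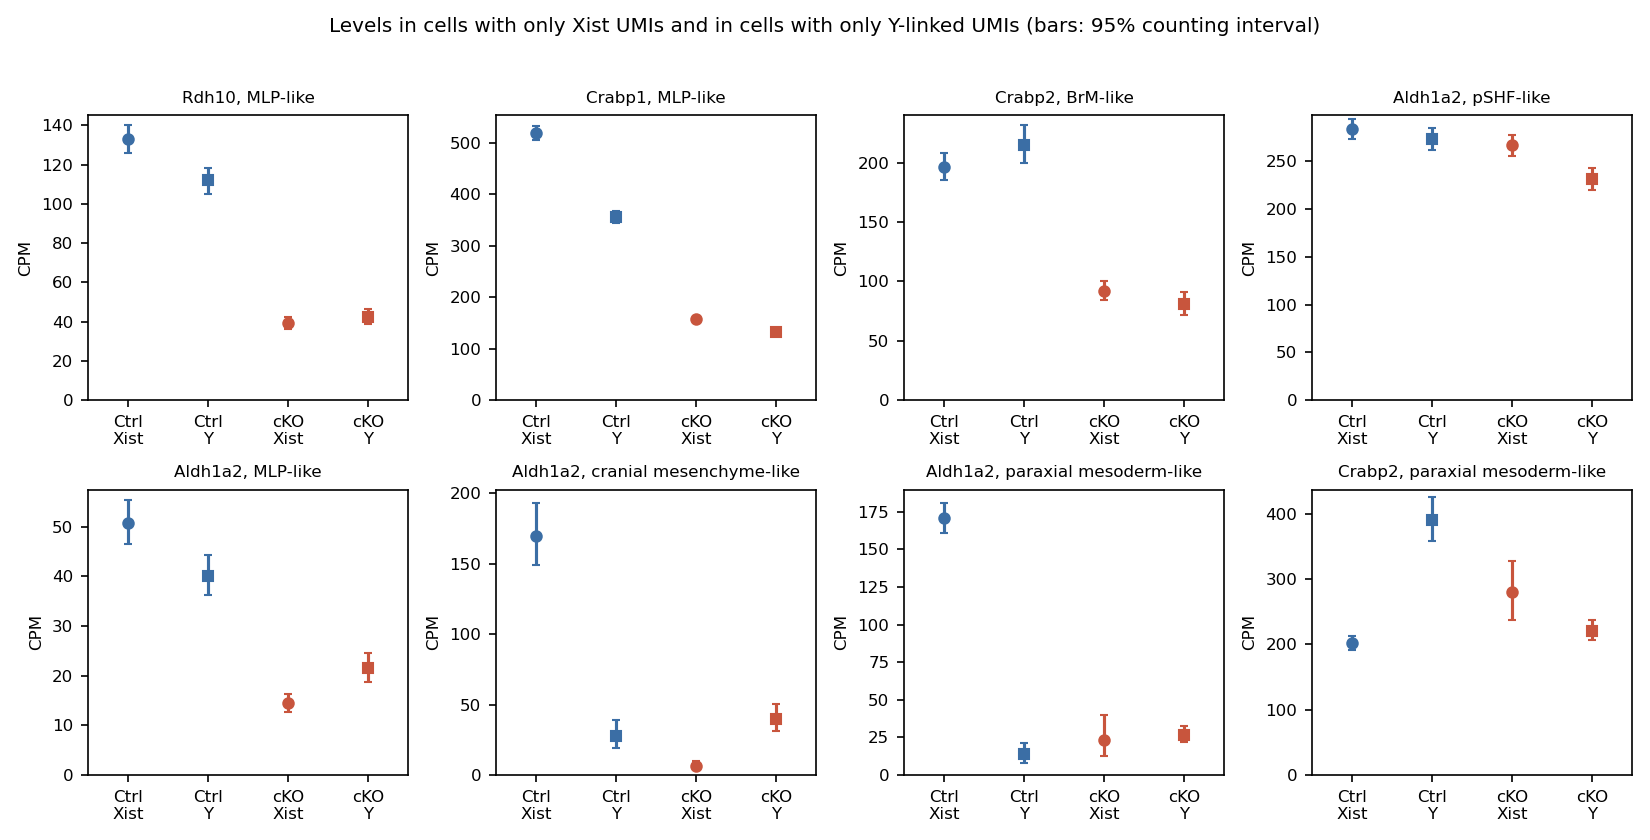
CPM (y, from 0, with a scale for each panel) in cells with Xist UMIs only and in cells with Y-linked UMIs only, in the library labelled Ctrl and the library labelled cKO (x), with 95% counting intervals as bars. Rdh10 and Crabp1 in MLP-like cells and Crabp2 in BrM-like cells are lower under cKO in both, and Aldh1a2 in paraxial mesoderm-like cells is 171 CPM in Xist cells under Ctrl and at most 26.7 CPM in the other 3 groups.

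Within the MLP-like cells and within clusters 1 and 8, a smaller share of the cells with Aldh1a2 than of the cells without it had Crabp1. Among thinned MLP-like cells of the library labelled Ctrl, 29.3% (22.9 to 36.3) of the 188 cells with an Aldh1a2 UMI had a Crabp1 UMI, and 62.3% (59.3 to 65.1) of the 1108 without did. Under cKO this was so for 10% (4.9 to 17.6) of the 100 cells with Aldh1a2 and for 34.9% (32.8 to 37.1) of the 1942 without. Clusters 1 and 8, where Crabp1 was not lower under cKO, had the same order: 44.4% and 77.4% in cluster 1 under Ctrl, 48.4% and 73.1% under cKO, 51.8% and 75.7% in cluster 8 under Ctrl, and 56.1% and 76.9% under cKO. Cells share a library, so these are descriptions with no test, and the shares pool the embryos and, in MLP-like cells, 4 clusters that differ in both genes.

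Cyp26a1 was likewise rarer in the MLP-like cells with Aldh1a2 under Ctrl, at 1.06% (0.129 to 3.79) against 8.94% (7.32 to 10.8). Rarb was more frequent in them, at 18.6% (13.3 to 24.9) against 8.39% (6.83 to 10.2), and under cKO the shares were 8% (3.52 to 15.2) and 5.72% (4.73 to 6.84), whose intervals overlap. Crabp2 did not follow Crabp1 in the MLP-like cells, with 58% and 57.8% under Ctrl.

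**Figure D4:**
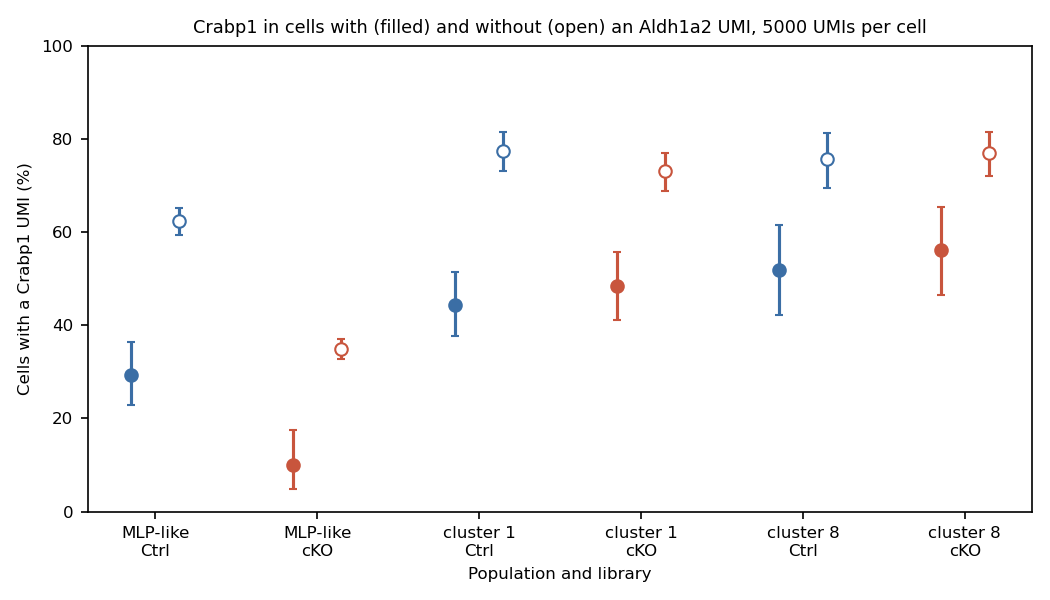
Percent of cells with a Crabp1 UMI (y) among cells with an Aldh1a2 UMI (filled) and without (open), each cell thinned to 5000 UMIs, in MLP-like cells, cluster 1 and cluster 8 of the library labelled Ctrl and the library labelled cKO (x), with exact binomial 95% intervals. In all 6 groups the filled point lies below the open one, at 29.3% against 62.3% in MLP-like cells under Ctrl.

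The genes whose CPM followed that of a member most closely over 25 clusters in both libraries (50 values that share 2 libraries and their depth, Pearson r on a log scale, 4956 genes compared) included Prrx1 (0.792) and Pitpnc1 (0.787) for Rdh10. For Aldh1a2 they were Gm15050 (0.813), Tshz1 (0.8) and Cxcl13 (0.797), for Cyp26b1 Klhl4 (0.811), H2-D1 (0.78) and Acer2 (0.763), for Crabp1 Lix1 (0.787), Prrx1 (0.748) and Irx3 (0.743), and for Crabp2 Mdk (0.711), Gas1 (0.702) and Lin28a (0.696). Tshz1 is also in the list of genes known to respond to retinoic acid.

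Other genes of the pathway (34 in the list: further dehydrogenases, retinol carriers, partner receptors and cofactors) were past 2-fold in few cases. In MLP-like cells 0 of 14 measured were past 2-fold, where 0.597% of all genes were higher and 2.73% lower, and their median log2 ratio was -0.25, beside -0.11 over all genes there. At a fold of 1.5, 4 of these 14 were lower beside 11.8% of all genes, and 5 of 16 in BrM-like cells beside 14%. Over the 15 populations, 1 ratio of 209 was higher and 8 were lower at 2-fold, or 0.478% and 3.83% beside 0.773% and 2.05% over all genes, and their median lay below that of all genes in 8 of 15. In BrM-like cells Rbp4, a carrier of retinol, was higher (12.1 to 27 CPM) and the receptor coactivators Ncoa1 (19.3 to 5.91 CPM) and Ncoa2 were lower. Stra6, the membrane receptor for retinol uptake, went from 22.7 to 8.7 CPM in paraxial mesoderm-like cells, and Aldh1a3, another enzyme that makes retinoic acid, from 16.7 to 5.19 CPM in cluster 11. Both values pool embryos that were shared unequally. Xist cells made up 76.7% under Ctrl and 11.1% under cKO in the former and 49.2% and 71.8% in the latter.

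Of 26 genes known to respond to retinoic acid, 4 of 17 measured in MLP-like cells were lower by 2-fold or more and 0 were higher, beside 2.73% lower over all genes, with a median log2 ratio of -0.54. Among them Tshz1, a zinc finger factor, was 113 CPM under Ctrl and 29.2 CPM under cKO, a ratio of -1.95 (-2.06 to -1.84). Tshz1 was lower in Xist cells (130 and 24.2 CPM) and in Y cells (97.5 and 32.8 CPM). Hoxb4 was 53.2 and 18.2 CPM in MLP-like cells, a ratio of -1.55 (-1.70 to -1.40). It was lower in Xist cells (62.3 and 14 CPM) and by less than 2-fold in Y cells (43.4 and 22.9 CPM).

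In cranial mesenchyme-like cells 10 of 17 were lower and 0 higher, beside 3.25% lower over all genes, with a median of -1.10 beside -0.10 over all genes, among them Hoxd4 (26.8 to 2.45 CPM), Hoxa3 (27.5 to 3.1 CPM), Hoxb4 (47.2 to 6.85 CPM) and Hoxb3 (56.4 to 9.95 CPM). The name of this population rests on 5 of 7 markers, without Otx2 and Alx1, and Pax9 of the paraxial list was among its leading genes. In paraxial mesoderm-like cells 6 of 20 were lower, beside 2.01%, with Hoxd4 at 80.7 and 12 CPM. The embryos also differed in Aldh1a2 in both libraries in the cranial and under Ctrl in the paraxial population, and in the latter Xist cells made up 76.7% under Ctrl and 11.1% under cKO. Hoxb4 in cranial mesenchyme-like cells was 71.4 and 4.06 CPM in Xist cells but 21.6 and 11.9 CPM in Y cells. The somite marker Pax1 moved with these values there, from 38.6 CPM to 0 UMIs in Xist cells, with 0.8 and 6.81 CPM in Y cells, and its part in the Hox and Aldh1a2 values was not tested. In paraxial mesoderm-like cells, however, Hoxd4 and Hoxb4 were lower in both kinds of embryo, unlike Aldh1a2. Hoxd4 was 84.5 and 39.4 CPM in Xist cells and 67.5 and 9.23 CPM in Y cells, and Hoxb4 114 and 57.4 CPM in Xist cells and 92.1 and 18.5 CPM in Y cells. In BrM-like cells 1 of 10 was lower (Meis1) beside 4.22% of all genes, in septum transversum-like cells 2 of 18 beside 1.53%, and in pSHF-like cells 0 of 18 beside 0.619%. The median of the list lay below that of all genes in all 15 populations, between -0.22 and -1.10 against -0.05 to -0.13, and over them 26 of 246 ratios (10.6%) were lower by 2-fold, beside 2.05% over all genes, and 0 higher. Of these 26, 10 lay in cranial mesenchyme-like and 6 in paraxial mesoderm-like cells. The 15 populations share 2 libraries, so the ratios are not separate observations. The list was chosen with earlier results of these data known. Of the 15 genes of the list with a promoter window, 0 held a DR5, beside 0.115% of genes over the genome. At that share a count of 0 among 15 genes does not tell the list from other genes. Sequence outside the windows was not searched.

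**Figure D5:**
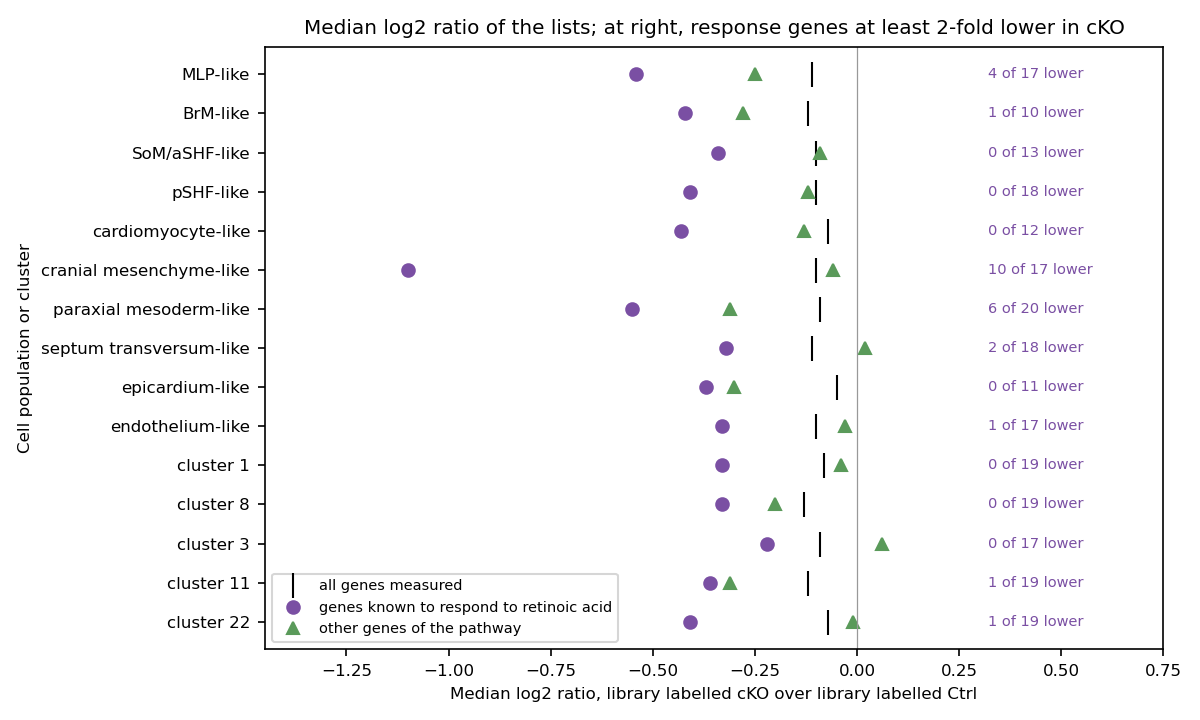
Median log2 ratio of CPM (library labelled cKO over library labelled Ctrl, x axis) in each of 15 populations or clusters (y axis) for all measured genes, for the list of other pathway genes and for the list of genes known to respond to retinoic acid, with the count of the latter that were lower by 2-fold at the right. The response list lies lowest in cranial mesenchyme-like cells at -1.10 and below all genes in each of the 15.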

How the data were processed

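Cells were captured with the 10x Genomics 3′ kit, and per the labels the authors' counts were made with Cell Ranger 3.1.0 on mm10. The deposited values are raw UMI counts per gene and cell, without normalization. Cells with at least 1000 genes and at most 10% mitochondrial UMIs were kept, which removed 411 Ctrl and 508 cKO cells. The cells with the highest Scrublet doublet scores (scanpy 1.11.5) were then taken out, at 0.8% per 1000 cells, which removed 416 and 804.

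The libraries were integrated in Seurat 5.3.0 (R 4.3.3) by reciprocal principal components, with 2000 variable genes, 30 dimensions and resolution 1, which gave 29 clusters. The members, both lists and the other genes of interest (228 in all) did not enter, and in a second pass nor did 1506 genes that differed by 2-fold between the libraries in 11 provisional classes. A cluster was named by the list with the highest share of its markers raised, where this was at least 3 markers and over 50% and where at least 1 of them, and no fewer than of any other list, stood among the 10 leading genes of the cluster.

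UMIs were summed per library and population. Intervals are exact (Poisson, conditional for ratios, Clopper-Pearson for shares, level 95%). Depth sets the precision: totals of the compared populations ran from 1132877 to 31263525 UMIs. For shares each cell was thinned to 5000 UMIs, which left out 71 and 99 cells. The fold rule was tested on simulated counts. All 10 members are described, measured or not. Of the 2 lists, up to 4 genes per population with the largest ratio could be named, and for patterns the 3 genes with the highest correlation. Pax1, and the Hox values by sex, were chosen after values were seen. The members and lists were chosen with earlier results of these data known. Python 3.11.15, scipy 1.17.1, numpy 2.4.6 and pandas 2.3.3 were used. Values of some genes of the lists are not reported here.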

Additional observations from a re-analysis of the deposited data

Results flagged for a closer look

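Cyp26 and Crabp genes had log2 ratios of opposite sign in different populations, with 1 library for each genotype, so that none of these differences was tested. Cyp26c1 was lower under cKO in MLP-like cells (-3.31) and higher in BrM-like cells (2.47). Cyp26a1 was lower in cluster 3 (-2.04), where the difference lay in Y cells and Xist cells made up 30.3% under Ctrl and 75.5% under cKO. It was also lower in SoM/aSHF-like cells (-1.30, from 43 and 15 UMIs) and higher in cranial mesenchyme-like cells (1.53, from 6 and 36 UMIs). In both of these it stayed under the 10 CPM asked for the counts by population, and in the cranial mesenchyme-like cells the ratio was -0.17 without integration. Crabp1 was lower in endothelium-like (-3.16), MLP-like (-1.60), BrM-like (-1.25) and cardiomyocyte-like cells (-1.03), and higher in epicardium-like cells (1.04), where Xist cells had 7 and 8 UMIs and Y cells 13 and 12.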

How the results depend on the processing

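Of 109 ratios with at least 30 UMIs, 22 were past 2-fold. Under 204 alternatives of those, 201 had the same sign and 179 were still past 2-fold. The 3 that changed sign were Aldh1a2 in cranial mesenchyme-like (0.51) and paraxial mesoderm-like cells (0.95) when Y cells alone were used, and Cyp26a1 in cranial mesenchyme-like cells without integration (-0.17). With Y cells alone, 0 of 6 measured genes in cranial mesenchyme-like and 0 of 5 in paraxial mesoderm-like cells were past 2-fold lower, beside 4.37% and 5.23% of all genes.

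In MLP-like cells, without integration Rdh10, Aldh1a2 and Crabp1 gave -1.91, -2.09 and -2.02. In the first clustering pass, which kept the genes that differ between libraries, they gave -2.04, -2.44 and -3.33. In Xist cells they gave -1.75, -1.81 and -1.73, and in Y cells -1.40, -0.90 and -1.43. Without the clusters led by Crym, an alternative chosen after seeing the data, they gave -1.20, -1.18 and -1.93, and 5 of 7 measured genes were lower by 2-fold, beside 3.32% of all genes. Scaling by the median ratio gave -1.51 for Rdh10 and -1.50 for Crabp1, means over cells -1.81 and -1.68, resolution 0.6 gave -1.76 for Rdh10, and keeping doublets -2.08 for Crabp1. Aldh1a2 in cranial mesenchyme-like cells gave -1.36 without integration, -1.72 in the first pass and -4.67 in Xist cells. In pSHF-like cells it gave -0.06 with median scaling, -0.09 in Xist cells and -0.24 in Y cells. Crabp2 in paraxial mesoderm-like cells gave 0.11 without integration, -0.61 at resolution 0.6 and -0.82 in Y cells, and Dhrs3 in septum transversum-like cells gave 1.48 in Y cells. In BrM-like cells the first pass left 1 of 4 lower by 2-fold, beside 4.32%. Of the response genes in MLP-like cells, 7 of 17 were lower at a fold of 1.5, beside 11.8% of all genes, and 9 of 22 with at least 1 CPM and no UMI minimum, beside 6.3%. Other than where the alternative's own construction shows it, the cause was not tested.

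Thinning set the shares: without it all 20 listed shares moved, and at 3000 UMIs 13 did. Repeated clustering gave values for named populations alone, and among these alternatives groups under 50 cells gave none. The values by sex in the text above include smaller groups, such as the 36 paraxial Xist cells under cKO. No paired analysis was possible because each genotype has 1 library here. Depth limits Dhrs3, Cyp26c1 and Rarg, which had few UMIs in most populations.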
